A study of Homo sapiens with 9 samples.

Results

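Retinoid receptors and retinoid-responsive genes, 9 members of the vitamin A pathway, were followed in polyadenylated RNA of MDA-MB-468 cells after depletion of BBOX1, the enzyme of the last step of carnitine synthesis. MDA-MB-468 is an established human cell line from a triple-negative breast tumour. The members are the retinoic acid receptors RARA, RARB and RARG, the retinoid X receptors RXRA and RXRB, the carrier CRABP2, the enzyme ALDH1A3, and the retinoid-responsive genes RARRES1 and RARRES3. All 9 symbols were found among the 27315 entries of the deposited table, and all 9 lay far enough above its floor to be among the 13165 genes tested. The members were chosen by symbol for their roles, and selected on earlier results for the differences of both hairpins from control in these same libraries, so their values are given as a description and carry no test.

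The 9 libraries fall into 3 groups of 3. Cells of the first group carried the hairpin sh1 against BBOX1 and cells of the second the hairpin sh6 against BBOX1, and the third group carried a scrambled control hairpin. All cells had been infected with a pLKO.1 lentivirus produced in 293T cells and kept under drug selection, so the controls share the infection. The labels give no time after infection and speak of triplicates without saying whether these were separate infections, so each p-value measures the spread between these 9 samples alone, which may be technical.

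In cells, retinol is oxidised to retinal by retinol dehydrogenases and retinal to retinoic acid by ALDH1A enzymes. CRABP2 hands retinoic acid to the retinoic acid receptors, which sit on DNA paired with a retinoid X receptor. Without ligand the pair recruits corepressors, and with ligand it recruits coactivators and transcribes its targets, among them RARB itself and the CYP26 enzymes that degrade retinoic acid. The retinoid X receptors also pair with vitamin D, thyroid hormone and peroxisome proliferator-activated receptors. In breast epithelium retinoic acid is known for slowing growth and favouring differentiation, and RARB is often silenced in breast cancer.

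The sequence that separates the sh1 cells from the controls is the target of the hairpin, which the labels give and which is shown because the sh1 comparisons rest on it. It matched BBOX1 over all 21 bases at chr11:27119767-27119787 on the plus strand of GRCh38, inside a coding exon (exon 7 of the 9 exons of transcript ENST00000263182.7, GENCODE release 29). In the transcripts of the 9 members the best ungapped match was 12 or 13 of the 21 bases. The labels give no target for sh6. They do give a second target, named sh2, which matched BBOX1 over 20 of its 21 bases, and no library carries that name.
sh1 target: cctctacctttgtggacttta

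Of the members, RARB is the classical target of its own family through a repeated half-site in its promoter, so the RefSeq promoters were searched for such repeats. The half-site AGGTCA and its variants (the form AGTTCA, the form GGTTCA and the form GGGTCA) were sought as direct repeats spaced by 1, 2 or 5 bases, on both strands, in the 250 bases before each start. Promoter entries were found for 8 members, with 15 windows in all. RARRES3 had no entry, so its promoter was not searched. One of the 4 RARB windows held a repeat spaced by 5 bases, lying 53 to 37 bases before the start, and no window of another member held one. A single half-site was present in 6 of the 15 windows. CYP26A1, the degrading enzyme, held a repeat spaced by 5 bases on the minus strand in 1 of its 2 windows, 90 to 74 bases before the start and inside an exon annotated for another start. Among all 35116 windows of this length, 0.202% held a repeat at any of these spacings, 0.074% held 1 spaced by 5 bases and 33.8% held a half-site. A match is a description of letters only. Capitals mark the half-sites of the repeat (a single half-site outside it stays in lower case) in the GRCh38.p14 plus strand at chr3:25428170-25428262 for RARB and chr10:93073797-93073826 for CYP26A1.
RARB promoter: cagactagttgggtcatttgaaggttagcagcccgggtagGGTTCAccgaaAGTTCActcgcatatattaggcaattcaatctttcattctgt
CYP26A1 promoter: taaagaTGAACTttgggTGAACTaattgtc

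Recovered depth was 15741149 to 16222266 reads per sh1 library, 16030025 to 18842108 per sh6 library and 16735761 to 19755801 per control library, and replicates correlated across genes with r of 0.9955 to 0.9978. The hairpins were checked on BBOX1, which had normalised counts of 324, 346 and 328 with sh1, 606, 618 and 581 with sh6 and 2703, 2785 and 2359.8 in controls. Both hairpin groups lay far below the controls, and the sh6 libraries kept more BBOX1 RNA than the sh1 libraries. Differences were widespread: at an adjusted p under 0.05 in limma, 58.9% of the tested genes were called with sh1 against control, 67.8% with sh6 against control and 59.7% with sh6 against sh1, and 38.3% were called in the same direction with both hairpins. Summed counts of 10 markers of the line (keratins, EGFR, CDH3 and EPCAM) were 144246 to 149947 with sh1, 143353 to 147791 with sh6 and 137434 to 148226 in controls, mostly EGFR and KRT8. Single keratins of that list were not level: KRT5 averaged 10797 with sh1, 12621 with sh6 and 7145 in controls, KRT14 averaged 83.6 with sh1, 28.6 with sh6 and 44.1 in controls, and KRT6A averaged 218 with sh1, 139.7 with sh6 and 260.1 in controls. PGR was at 0 in every library, whereas ESR1 averaged 242 normalised counts with sh1, 109 with sh6 and 227 in controls. ERBB2 averaged 753 with sh1, 602 with sh6 and 1091 in controls, so transcripts of both receptors were present in a line labelled triple-negative.

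Markers of other cell types were low but not level. Summed counts of 7 leucocyte markers were 86.5 to 96.6 with sh1, 143 to 151 with sh6 and 200.1 to 229.8 in controls, nearly all from CD68, with CD3D at 0. The 5 endothelial markers summed to 105 to 153 with sh1, 94.9 to 135 with sh6 and 248 to 285 in controls, mostly KDR. The 7 fibroblast markers summed to 299 to 364 with sh1, 363 to 449 with sh6 and 344 to 486 in controls, mostly COL1A1. Their part in the results was not tested. In bulk RNA, fewer cells of a type and less RNA per cell cannot be told apart.

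By separation from the controls, 8 of the 9 members had 3 sh1 libraries entirely above or below the 3 controls (64.1% of all tested genes did), and 7 of the 9 had 3 such sh6 libraries (68.4%). Nothing is read from these counts, because the choice of members used these comparisons. The median difference over the 9 members was -0.35 on the log2 scale with sh1 and -0.19 with sh6, beside 0.00 and 0.01 over all tested genes. RARRES1 and RARRES3 were far lower with sh1, RARRES3 was about as low with sh6, and ALDH1A3 was far higher with sh6. The receptors differed by smaller amounts, with RXRB on the opposite side from RARA and RARG.

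**Figure D1:**
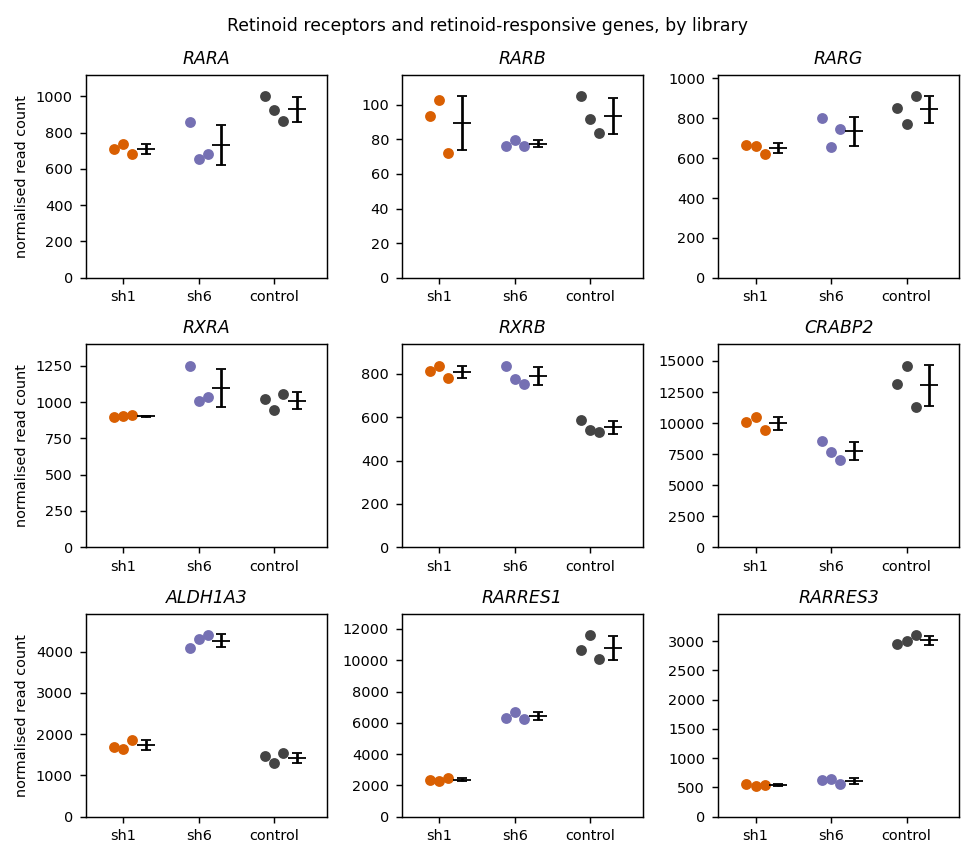
Normalised read count (vertical axis, linear, from 0) of each member in every library with sh1, with sh6 and in scrambled controls; dots are libraries, and the black dash and bar are mean and SD of 3. RARRES3 is at 648 or less in all 6 hairpin libraries and at 2955 or more in the 3 controls, while ALDH1A3 is at 4089 or more in the 3 sh6 libraries and at 1867 or less in the other libraries.

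Among the retinoic acid receptors, RARA and RARG made up most of the family's counts, uncorrected for length, and both were lower with sh1. RARA, the most widely expressed receptor of the family, had 709, 737 and 681 normalised counts with sh1, 861, 653 and 683 with sh6 and 1001, 924 and 864 in controls. All 6 hairpin libraries were below all 3 controls, although the highest sh6 library, at 860.8, came close to the lowest control, at 863.6. The means were 709 ± 27.9 with sh1, 732 ± 112 with sh6 and 929.7 ± 68.9 in controls (SD, n = 3 each). This put the control mean 1.31-fold above sh1 and 1.27-fold above sh6. On the deposited log2 scale the RARA differences were -0.36 ± 0.08 with sh1 and -0.33 ± 0.08 with sh6 (SE), and -0.47 with sh6 when libraries were weighted by their quality.

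RARG, a receptor best known from skin and other epithelia, had 668, 660.0 and 621 normalised counts with sh1, 799, 658 and 748 with sh6 and 851, 772 and 911 in controls. The sh1 libraries were all below the controls, while the highest sh6 library overlapped them. Its log2 difference was -0.35 ± 0.07 with sh1 and -0.19 ± 0.07 with sh6 (SE), and leaving out single libraries moved the sh6 value between -0.24 and -0.11. Between the hairpins RARG differed by 0.16 ± 0.07 (sh6 minus sh1), with overlapping libraries.

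RARB, the receptor gene that retinoic acid itself induces, was low in all 9 libraries. It had 93.8, 103 and 72.0 normalised counts with sh1, 76.5, 79.8 and 76.2 with sh6 and 105, 92.1 and 84.0 in controls. The sh1 libraries overlapped the controls, and the sh6 libraries lay just under them. Log2 differences were -0.05 ± 0.10 with sh1 and -0.17 ± 0.10 with sh6 (SE), the first of which took either sign, from -0.11 to 0.05, as single libraries were left out. Within the family RARB made up 6.15% of the receptor counts with sh1, 5.06% with sh6 and 5.01% in controls. Together the 3 receptors summed to 1448 ± 66.0 normalised counts with sh1, 1545 ± 176 with sh6 and 1868 ± 84.4 in controls (SD, n = 3 each).

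The pair of retinoid X receptors did not move alike. RXRB was the only receptor of the 5 that was higher with both hairpins, at 814, 836 and 781 normalised counts with sh1, 837, 777 and 755 with sh6 and 586, 541 and 532 in controls. No hairpin library overlapped a control, and the hairpins overlapped each other. The means were 810.2 ± 28.0 with sh1, 789.8 ± 42.7 with sh6 and 553 ± 28.8 in controls (SD, n = 3 each), which is 1.46-fold and 1.43-fold above control. Its log2 differences were 0.50 ± 0.06 with sh1 and 0.47 ± 0.06 with sh6 (SE).

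RXRA, the partner best known from liver and skin, had 900.1, 902 and 909 normalised counts with sh1, 1251, 1010.5 and 1035 with sh6 and 1025, 945 and 1059 in controls. The sh1 libraries were tightly grouped under the controls, and the sh6 libraries overlapped the controls from above. Log2 differences were -0.15 ± 0.07 with sh1, 0.11 ± 0.07 with sh6 and 0.26 ± 0.07 for sh6 minus sh1 (SE). The sh6 value ranged from 0.02 to 0.16 as single libraries were left out. RXRB therefore made up 47.3% ± 0.97 of the counts of the pair with sh1, 41.9% ± 1.70 with sh6 and 35.4% ± 1.71 in controls (SD, n = 3 each). The pair summed to 1714 ± 24.5 with sh1, 1889 ± 173 with sh6 and 1563 ± 67.3 in controls. The remaining member of the family, RXRG, was at 0 in all 9 libraries.

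CRABP2, which carries retinoic acid to the receptors, was the most abundant member per median length of coding transcript. It had 10106, 10463 and 9431 normalised counts with sh1, 8525, 7645 and 7043 with sh6 and 13171, 14609 and 11329 in controls. The 3 groups did not overlap: sh6 was lowest, sh1 between and controls highest. Mean counts were 9999.9 ± 524 with sh1, 7738 ± 745 with sh6 and 13036 ± 1644 in controls (SD, n = 3 each). The control mean was 1.30-fold above sh1 and 1.68-fold above sh6. Log2 differences were -0.37 ± 0.07 with sh1, -0.74 ± 0.07 with sh6 and -0.37 ± 0.07 for sh6 minus sh1 (SE). After quantile normalisation the sh1 difference was -0.15 and the sh6 minus sh1 difference -0.53.

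ALDH1A3, which oxidises retinal to retinoic acid and is used as a marker of stem-like breast cancer cells, separated the hairpins. It had 1685, 1638 and 1867 normalised counts with sh1, 4089, 4296 and 4395 with sh6 and 1464, 1303 and 1539.6 in controls. The sh1 libraries lay just above the controls and the sh6 libraries far above both. Means were 1730.1 ± 121 with sh1, 4260.1 ± 156 with sh6 and 1435 ± 121 in controls (SD, n = 3 each). That is 1.21-fold above control with sh1 and 2.97-fold with sh6. Log2 differences were 0.26 ± 0.06 with sh1, 1.53 ± 0.06 with sh6 and 1.27 ± 0.06 for sh6 minus sh1 (SE). With sh6 the ALDH1A3 difference was number 47 from the top of the 13165 genes.

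RARRES1, a membrane protein named for its induction by the retinoid tazarotene, was lower with both hairpins but by unlike amounts. It had 2354, 2275 and 2491 normalised counts with sh1, 6329.6, 6709 and 6269 with sh6 and 10621, 11586 and 10089 in controls. The groups were wholly separate, with sh6 between sh1 and the controls. Means were 2373 ± 109 with sh1, 6436 ± 238 with sh6 and 10765 ± 759 in controls (SD, n = 3 each). The control mean was 4.54-fold above sh1 and 1.67-fold above sh6, and sh6 was 2.71-fold above sh1. On the log2 scale RARRES1 differed by -2.15 ± 0.06 with sh1, -0.73 ± 0.06 with sh6 and 1.42 ± 0.06 for sh6 minus sh1 (SE). Its difference was number 13 from the bottom of all tested genes with sh1 and number 913 with sh6.

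RARRES3, a phospholipase and acyltransferase of the HRAS-like suppressor family whose gene is induced by retinoids and by interferon, was low with both hairpins. It had 556, 525 and 542 normalised counts with sh1, 629, 648 and 559 with sh6 and 2955, 2995 and 3099 in controls. The 6 hairpin libraries all lay below the lowest control by a wide margin, and the lowest sh6 library was just above the highest sh1 library. Means were 541 ± 15.5 with sh1, 612 ± 46.9 with sh6 and 3016 ± 74.3 in controls (SD, n = 3 each). The control mean was 5.58-fold above sh1 and 4.93-fold above sh6. RARRES3 differed by -2.35 ± 0.06 with sh1, -2.19 ± 0.06 with sh6 and 0.16 ± 0.06 for sh6 minus sh1 on the log2 scale (SE). It was number 9 from the bottom with sh1 and number 31 with sh6. In the authors' deposited table RARRES3 stands in row 4 with a log2 fold change of -2.39, of a comparison whose samples the table does not state.

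**Figure D2:**
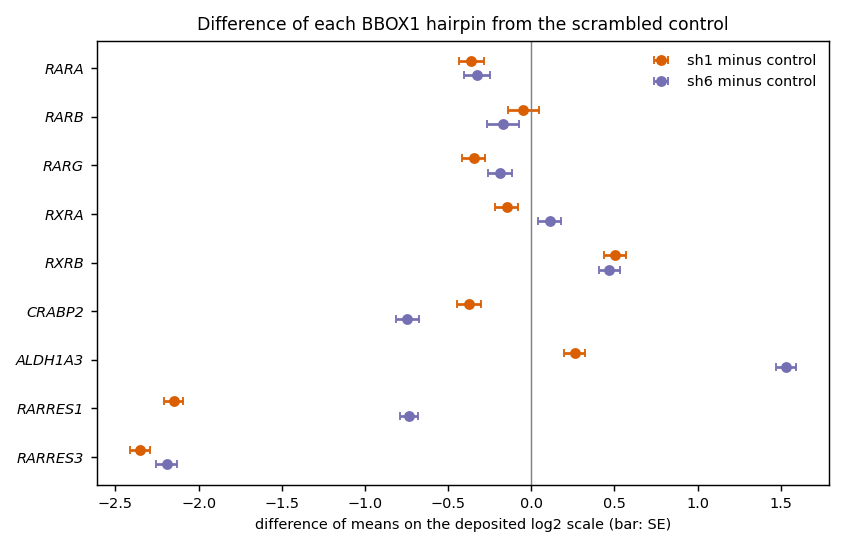
Difference of each hairpin group from the scrambled controls for the 9 members, on the deposited log2 scale (horizontal axis), with sh1 above sh6 in each row; dots are differences of means of 3 libraries and bars are SE. RARRES3 lies near -2.35 with sh1 and -2.19 with sh6, whereas RARRES1 and ALDH1A3 lie far apart between the hairpins.

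Levels can be compared between members only per transcript length. Taking the median length of each gene's coding transcripts, normalised counts per kilobase in sh1 cells were 10081 ± 529 for CRABP2, 1701 ± 78.4 for RARRES1, 722 ± 20.8 for RARRES3 and 557 ± 38.9 for ALDH1A3 (SD, n = 3). In sh6 cells they were 7799.96 ± 751 for CRABP2, 4612 ± 171 for RARRES1, 1372 ± 50.2 for ALDH1A3 and 817 ± 62.6 for RARRES3. In controls they were 13141 ± 1657 for CRABP2, 7714 ± 544 for RARRES1, 4027 ± 99.1 for RARRES3 and 462 ± 39.0 for ALDH1A3. By these median lengths ALDH1A3 stood above RARRES3 in sh6 cells and below it in sh1 cells and controls. The order in sh1 cells depends on the length taken. Coding transcripts run from 1670 to 3924 bases for ALDH1A3 and from 696 to 938 bases for RARRES3.

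Most receptors were lower per kilobase. Control values were 407 ± 30.1 for RARA, 377 ± 31.0 for RARG, 192 ± 10.00 for RXRB and 33.8 ± 3.82 for RARB (SD, n = 3). The control libraries of ALDH1A3 and RARA overlapped, as did those of RARA and RARG. In sh1 cells RXRB, at 282 ± 9.74, came level with RARG, at 290.3 ± 11.3, and RARA was at 310.2 ± 12.2. In sh6 cells RARG was at 328 ± 32.1, RARA at 321 ± 49.1 and RXRB at 275 ± 14.8. RXRA was at 489 ± 2.45 with sh1, 595 ± 71.7 with sh6 and 547 ± 31.9 in controls, values that its single annotated coding transcript of 1846 bases may overstate, since 11083 exon bases are annotated for the gene.

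The members lie apart in the genome (GRCh38, GENCODE release 29). RARRES1 is at chr3:158696892-158732696 on the minus strand and RARB at chr3:25174332-25597932 on the plus strand. RARRES3 is at chr11:63536809-63546462 on the plus strand, RARA at chr17:40309192-40357643 on the plus strand and RARG at chr12:53210567-53232980 on the minus strand. RXRA is at chr9:134317098-134440585 on the plus strand, RXRB at chr6:33193588-33200688 on the minus strand, CRABP2 at chr1:156699606-156705816 on the minus strand and ALDH1A3 at chr15:100877714-100916626 on the plus strand. Reads from overlapping genes cannot be assigned, because no source used here says how strand was treated in the counting. Exon bases shared with other genes were 28.6% for ALDH1A3, with genes of both strands, and, all with genes of the opposite strand, 17.9% for RARA, 14.8% for RARRES1, 6.22% for RXRB and 0.757% for RARB. Among the 3 pairs of retinoic acid receptors and the pair RXRA and RXRB, the longest exact run shared by transcripts was 39 bases, between RARA and RARG, which is shorter than the reads of 100 bases. Other pairs of members were not compared.

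RARRES3 belongs to a cluster of related phospholipase genes on chromosome 11, and its tested neighbours there fell too. HRASLS2 lies 6307 bases beyond RARRES3 and PLA2G16 another 9811 bases on, both on the minus strand. HRASLS2 had 50.3, 47.3 and 55.6 normalised counts with sh1, 13.9, 12.7 and 15.9 with sh6 and 223, 241 and 223 in controls. The groups were separate, and here sh6 was the lowest. HRASLS2 fell by 1.45 on the log2 scale with sh1 (adjusted p = 1.21e-14) and by 2.23 with sh6 (adjusted p = 1.92e-19). That scale understates changes of low genes: in counts the control mean was 4.49-fold above sh1 and 16.2-fold above sh6.

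PLA2G16, a phospholipase of the same family, averaged 430.1 ± 11.0 normalised counts with sh1, 565 ± 60.6 with sh6 and 1223 ± 133 in controls (SD, n = 3 each). It fell by 1.38 with sh1 (adjusted p = 3.92e-16) and by 1.04 with sh6 (adjusted p = 2.57e-13). The longest exact run that RARRES3 shares with HRASLS2 is 20 bases and with PLA2G16 23 bases, so reads of 100 bases tell them apart. HRASLS5, on the other side of RARRES3, was too low to test. HRASLS, a relative outside the cluster, had a log2 difference of 0.26 with sh1 (adjusted p = 0.0175), against -0.26 with sh6 (adjusted p = 0.0161), calls that did not last when single libraries were left out: sh1 was at 0.21 without control replicate 1, 0.25 without sh1 replicate 2 and 0.23 without sh1 replicate 3, and sh6 was at -0.22 without control replicate 3 and -0.20 without sh6 replicate 3.

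RARRES1 has its relative LXN, the carboxypeptidase inhibitor latexin, 24198 bases away on the same strand of chromosome 3. LXN averaged 672 ± 8.81 normalised counts with sh1, 1263 ± 32.3 with sh6 and 1785 ± 34.6 in controls (SD, n = 3 each). The control mean was 2.66-fold above sh1 and 1.41-fold above sh6, the order that RARRES1 showed. LXN fell by 1.33 on the log2 scale with sh1 (adjusted p = 7.41e-19) and by 0.48 with sh6 (adjusted p = 9.41e-09). The longest exact run shared by RARRES1 and LXN transcripts was 11 bases.

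The genes of the rest of the pathway were counted in lists by role. Without the relatives of RARRES1 and RARRES3 and the list of interferon-induced genes, 78 genes of the lists were tested (IRF1, which is on 2 lists, among them), of which 17 rose and 39 fell with sh1 (29.0% and 30.0% of all tested genes did) and 24 rose and 34 fell with sh6 (34.2% and 33.6%). With both hairpins 10 rose and 26 fell, which is 12.8% and 33.3% of the 78, beside 18.9% and 19.4% of all tested genes. Median log2 differences over the 78 were -0.13 with sh1 and -0.05 with sh6. No test of the lists as sets was made, and the lists overlap in genes such as DHRS3, STRA6, LRAT, CYP26A1, CYP26B1 and NRIP1. RXRG, NR1I2, TTR, RPE65, RDH8, HOXB1, HOXD4, CDX1, CEBPE and STRA8 were at 0 in all 9 libraries.

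**Figure D3:**
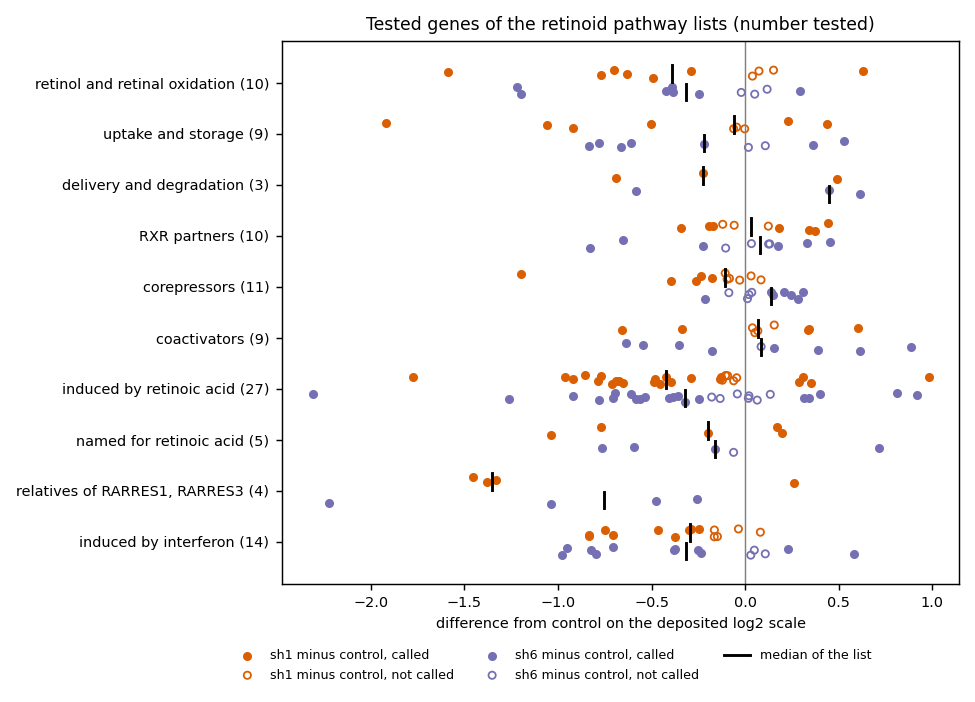
Difference from the scrambled control on the deposited log2 scale (horizontal axis) for each tested gene of 10 lists, with sh1 above sh6 in each row; filled dots passed the test, open dots did not, and black bars are list medians. The row of retinol and retinal oxidation also holds reductases of retinal, such as DHRS3 and RDH11. In that row 6 of 10 genes fell with both hairpins. The corepressors lie mostly below 0 with sh1 and above 0 with sh6.

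Of 10 tested enzymes that interconvert retinol, retinal and retinoic acid, 0 rose and 6 fell with both hairpins, beside 18.9% and 19.4% of all tested genes. ALDH1A3, as a member, is not on this list, and its counts were higher with both hairpins. Their median log2 difference was -0.39 with sh1 and -0.32 with sh6. RDH10, which makes retinal from retinol, had 1069.8, 988 and 1107 normalised counts with sh1, 1411, 1419.9 and 1369.5 with sh6 and 3316, 3391 and 3167 in controls. It was separate in all 3 groups and fell by 1.59 on the log2 scale with sh1 (adjusted p = 7.26e-21) and by 1.20 with sh6 (adjusted p = 6.43e-18). DHRS3, which runs the reverse step and is induced by retinoic acid, averaged 1043 ± 70.7 with sh1, 1381 ± 101 with sh6 and 1824 ± 70.2 in controls (SD, n = 3 each). It fell by 0.77 with sh1 (adjusted p = 4.34e-12) and by 0.39 with sh6 (adjusted p = 2.39e-06).

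RDH11, another reductase of retinal, fell by 0.70 with sh1 (adjusted p = 1.75e-12) and by 0.25 with sh6 (adjusted p = 0.000192). ALDH1A2, a relative of ALDH1A3 with the same reaction, was near the floor at 26.5, 16.4 and 14.8 normalised counts with sh1, 4.42, 3.60 and 3.08 with sh6 and 67.7, 45.2 and 41.8 in controls. It fell by 0.63 with sh1 (adjusted p = 1.87e-05) and by 1.22 with sh6 (adjusted p = 6.69e-11), on a scale that understates changes of low genes. The direction with sh6 was thus the opposite of that of ALDH1A3, whose values stand above.

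**Figure D4:**
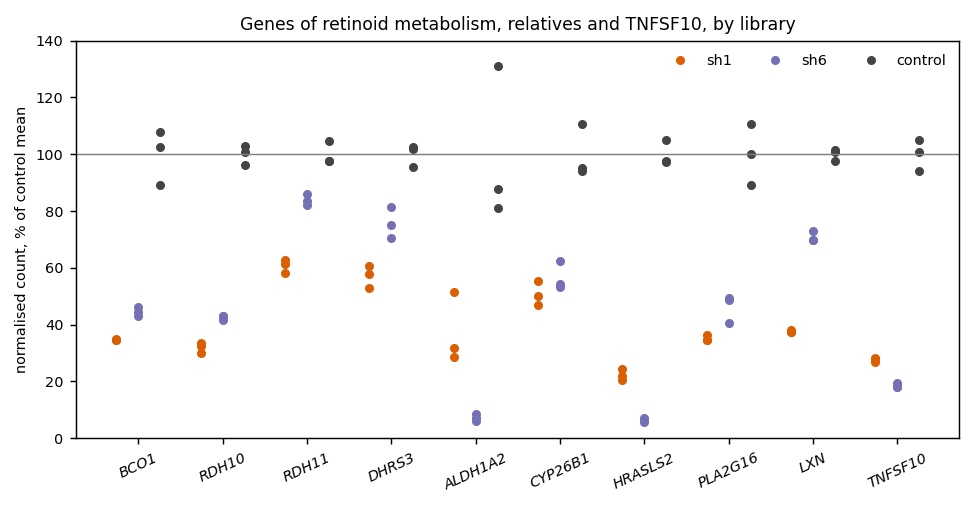
Normalised count of each library as a percentage of the control mean (vertical axis, linear, from 0) for 10 genes, with sh1 left of sh6 and controls right; dots are libraries. Every hairpin library of these genes lies below the 3 controls of its gene, and HRASLS2 and ALDH1A2 lie under 10% with sh6.

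Of 9 tested genes of retinol uptake and storage, 1 rose and 3 fell with both hairpins, beside 18.9% and 19.4% of all tested genes. CES1, a carboxylesterase able to release retinol from its esters, averaged 913 ± 18.8 normalised counts with sh1, 2271 ± 183 with sh6 and 3631 ± 128 in controls (SD, n = 3 each). It fell by 1.92 with sh1 (adjusted p = 1.22e-22) and by 0.66 with sh6 (adjusted p = 1.82e-11).

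BCO1, which cleaves beta-carotene to retinal, averaged 71.9 ± 0.57 normalised counts with sh1, 92.4 ± 3.27 with sh6 and 207 ± 19.9 in controls (SD, n = 3 each). It fell by 1.06 with sh1 (adjusted p = 6.97e-12) and by 0.83 with sh6 (adjusted p = 8.31e-10). RBP7, a retinol-binding protein at low level here, rose by 0.44 with sh1 (adjusted p = 0.00131) and by 0.36 with sh6 (adjusted p = 0.00529), and the sh6 call was lost at 0.25 without control replicate 3. In counts the RBP7 mean was 2.27-fold above control with sh1 and 2.00-fold with sh6. STRA6, the cell-surface receptor for retinol carried in blood, fell by 0.61 with sh6 (adjusted p = 8.5e-09) and differed by -0.05 with sh1 (adjusted p = 0.603).

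Delivery and degradation of retinoic acid were represented by 3 tested genes. CYP26B1, which degrades retinoic acid, averaged 93.4 ± 7.91 normalised counts with sh1, 104 ± 9.22 with sh6 and 184 ± 17.2 in controls (SD, n = 3 each). It fell by 0.69 with sh1 (adjusted p = 7.56e-08) and by 0.59 with sh6 (adjusted p = 9.59e-07). FABP5, a carrier that delivers retinoic acid to PPARD instead of the retinoic acid receptors, averaged 41.9 ± 10.9 with sh1, 49.1 ± 4.10 with sh6 and 18.7 ± 5.52 in controls. FABP5 rose by 0.49 with sh1 (adjusted p = 0.000279) and by 0.62 with sh6 (adjusted p = 1.05e-05) on the log2 scale. In counts its mean was 2.24-fold above control with sh1 and 2.62-fold with sh6.

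CRABP1, the relative of CRABP2 linked to breakdown of retinoic acid, averaged 128 ± 9.49 normalised counts with sh1, 238 ± 22.2 with sh6 and 159 ± 3.73 in controls (SD, n = 3 each). It rose by 0.45 with sh6 (adjusted p = 2.23e-05). With sh1 it differed by -0.23 (adjusted p = 0.0211), a call lost at -0.21 without control replicate 1 and at -0.18 without sh1 replicate 1. CYP26A1, whose promoter repeat is printed above, was too low to test, at 0, 1.02 and 2.98 normalised counts with sh1, 8.45, 10.00 and 10.7 with sh6 and 2.05, 2.09 and 1.74 in controls. The sh6 libraries stood above the other 6 by a handful of reads.

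Of 27 tested genes known to be induced by retinoic acid, 4 rose and 18 fell with sh1 (29.0% and 30.0% of all tested genes did), and 5 rose and 15 fell with sh6 (34.2% and 33.6%). With both hairpins 4 rose and 12 fell, beside 18.9% and 19.4% of all tested genes. Medians were -0.42 with sh1 and -0.32 with sh6. TNFSF10, the death ligand TRAIL, had 903, 891 and 857 normalised counts with sh1, 575, 622 and 578 with sh6 and 3217, 3343 and 2998 in controls. TNFSF10 fell by 1.78 with sh1 (adjusted p = 1.6e-21) and by 2.31 with sh6 (adjusted p = 1.32e-24). BHLHE40, a transcriptional repressor of the circadian system, averaged 3497 ± 56.4 with sh1, 2631 ± 232 with sh6 and 6393 ± 622 in controls (SD, n = 3 each). It fell by 0.85 with sh1 (adjusted p = 4.69e-13) and by 1.26 with sh6 (adjusted p = 2.4e-17).

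In the same list LAMB1, a laminin chain, moved the other way, at 2979 ± 201 normalised counts with sh1, 2850.1 ± 164 with sh6 and 1481 ± 145 in controls (SD, n = 3 each). It rose by 0.98 with sh1 (adjusted p = 2.52e-14) and by 0.92 with sh6 (adjusted p = 7.59e-14). HOXB2, a homeobox gene of the hindbrain, was too low to test and averaged 7.09 ± 3.76 with sh1, 6.87 ± 2.60 with sh6 and 38.1 ± 1.18 in controls. Of 5 tested genes whose names record induction by retinoic acid, GPRC5B fell by 1.04 with sh1 (adjusted p = 6.44e-14) and by 0.77 with sh6 (adjusted p = 4.74e-11). NAV2, a neuron navigator protein, fell by 0.77 with sh1 (adjusted p = 2.53e-11) and by 0.60 with sh6 (adjusted p = 3.67e-09). RAI14 rose by 0.71 with sh6 (adjusted p = 6.46e-13) and by 0.17 with sh1 (adjusted p = 0.00723), the sh1 call being lost at 0.14 without sh1 replicate 1. RAI1 had a log2 difference of -0.20 with sh1 (adjusted p = 0.0146) and 1 of -0.16 with sh6 (adjusted p = 0.042), calls lost at -0.17 without control replicate 1 or sh1 replicate 1 for sh1, and for sh6 at -0.13 without control replicate 1, -0.15 without control replicate 3, -0.16 without any 1 of the sh1 libraries, -0.09 without sh6 replicate 2 and -0.12 without sh6 replicate 3.

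Since RARRES3 and TNFSF10 also answer to interferon, 14 tested interferon-induced genes, IRF1 among them, were set beside them. Of these, 0 rose and 7 fell with both hairpins (18.9% and 19.4% of all tested genes did), with medians of -0.30 with sh1 and -0.32 with sh6. IFIT3, an antiviral effector, averaged 432 ± 11.8 normalised counts with sh1, 435 ± 29.8 with sh6 and 820.0 ± 61.5 in controls (SD, n = 3 each). IRF1 fell by 0.29 with sh1 (adjusted p = 0.000176) and by 0.70 with sh6 (adjusted p = 1.83e-11). The part of the interferon genes in the RARRES3 values was not tested.

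The cofactors of the receptors separated the hairpins. Of 11 tested corepressor genes, 0 rose and 5 fell with sh1 (29.0% and 30.0% of all tested genes did), while 6 rose and 1 fell with sh6 (34.2% and 33.6%), and 8 were called higher and 0 lower with sh6 than with sh1 (30.8% and 28.9% of all tested genes were). CORO2A, a component of the NCOR complex, fell with both, at 359 ± 26.1 normalised counts with sh1, 769 ± 35.8 with sh6 and 902 ± 46.8 in controls (SD, n = 3 each). It fell by 1.20 with sh1 (adjusted p = 8.85e-16) and by 0.21 with sh6 (adjusted p = 0.00647). TBL1X, another component of that complex, fell by 0.26 with sh1 (adjusted p = 0.00172) and rose by 0.25 with sh6 (adjusted p = 0.0024).

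Of 9 tested coactivator genes, 1 rose and 1 fell with both hairpins (18.9% and 19.4% of all tested genes did) and 2 were called in opposite directions (6.40% did). PRMT1, an arginine methyltransferase, averaged 5205 ± 146 normalised counts with sh1, 6348 ± 87.4 with sh6 and 3424 ± 449.5 in controls (SD, n = 3 each). It rose by 0.60 with sh1 (adjusted p = 9.56e-10) and by 0.89 with sh6 (adjusted p = 1.09e-13). CARM1, a methyltransferase that acts with the p160 coactivators, averaged 1811 ± 27.0 with sh1, 949 ± 21.8 with sh6 and 1416 ± 29.9 in controls. CARM1 rose by 0.34 with sh1 (adjusted p = 3.63e-06) and fell by 0.55 with sh6 (adjusted p = 3.91e-10). NCOA2, a p160 coactivator, fell by 0.66 with sh1 (adjusted p = 3.74e-11) and by 0.18 with sh6 (adjusted p = 0.00786), the sh6 call being lost at -0.14 without sh6 replicate 2.

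NCOA3, a p160 coactivator often amplified in breast cancer, fell by 0.34 with sh1 (adjusted p = 6.55e-06) and differed by 0.15 with sh6 (adjusted p = 0.0189). That sh6 call was lost at 0.13 without control replicate 3, at 0.10 without sh6 replicate 3, and without the mean trend of the fit. Among 10 tested partners of the retinoid X receptors, 2 rose and 2 fell with both, shares close to the 18.9% and 19.4% of all tested genes. THRB, a thyroid hormone receptor, rose by 0.34 with sh1 (adjusted p = 3.35e-05) and by 0.45 with sh6 (adjusted p = 2.73e-07). NR4A1, an orphan receptor, rose by 0.37 with sh1 (adjusted p = 0.0012) and by 0.33 with sh6 (adjusted p = 0.00266).

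The related NR4A2 fell by 0.35 with sh1 (adjusted p = 0.0023) and by 0.83 with sh6 (adjusted p = 4.66e-09). PPARD, the receptor that FABP5 serves, averaged 1383 ± 92.0 normalised counts with sh1, 972 ± 54.7 with sh6 and 1562 ± 12.2 in controls (SD, n = 3 each). It fell by 0.65 with sh6 (adjusted p = 5.71e-11). With sh1 it differed by -0.17 (adjusted p = 0.0158), a call lost at -0.16 without control replicate 1, at -0.12 without sh1 replicate 3 and at -0.14 after quantile normalisation.

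For each of the 4 members outside the receptors, the genes nearest in pattern were taken as those with the smallest root mean square distance over the 9 libraries, after the control mean of each gene was subtracted from its log2 values. For RARRES3 these were VNN2 at 0.20, CXCL17 at 0.26 and BBOX1 itself at 0.27, where the median over all tested genes was 1.87. For RARRES1 they were CES1 at 0.16, PAM at 0.17 and LOX at 0.21, beside a median of 1.33. CRABP2 was nearest to PHKG1 at 0.06, HES1 at 0.07 and CPNE8 at 0.07, beside a median of 0.53. ALDH1A3 was nearest to PTPRS at 0.10, SMO at 0.11 and LOC101927751 at 0.12, beside a median of 0.91. These are descriptions over libraries of 3 groups, and a small distance mainly records like differences of both hairpins from control.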

How the data were processed

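Polyadenylated RNA was sequenced in pairs of 100-base reads, per the labels' protocols. Tools named in the submitters' processing notes are cutadapt, STAR, Salmon and DESeq2, with the build hg19. The authors deposited variance-stabilised values on a log2-like scale with a floor of 5.02, beside a log2 fold change and a p-value for a comparison they do not state. Its name calls the values batch-corrected, yet 75.5% to 80.2% of low values per library are whole reads within 0.05 once inverted. Counts and folds in the text are normalised counts from that inversion, and differences are on the deposited log2 scale. That scale understates differences of genes with low counts.

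Genes with a mean at least 1 above the floor (a normalised count of 16.2) were tested. limma 3.58.1 in R 4.3.3 (lmFit, eBayes with a mean trend, two-sided) was fitted to all 9 libraries in 3 groups, with Benjamini-Hochberg adjustment over the 13165 genes and a threshold of 0.05. The fit was also run on simulated counts in which few genes differed, with sh1 only, and replicates were independent. That setting is unlike these data, so the run checks the code and not the calls. Members and lists were chosen with earlier results of these data known. Named were all members, BBOX1, up to 4 genes per list called with both hairpins in 1 direction, up to 2 called in opposite directions, and the 3 nearest genes of the 4 members outside the receptors. One list gene that this rule names is not reported here. Other genes named (STRA6, CYP26A1, HOXB2, HRASLS5, IRF1 and the markers) were chosen after their values were seen. Of the symbols, 27 had been turned into dates and are not named. GENCODE release 29 (GRCh38, not the authors' build) gave the positions, and promoters came from RefSeq on GRCh38.p14. Alternatives were other filters, scalings, priors, weights, thresholds, a replicate block and leaving out each library. Python 3.11.15 with numpy 2.4.6, pandas 2.3.3 and matplotlib 3.10.9 did the rest.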

Additional observations from a re-analysis of the deposited data

Results flagged for a closer look

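In the lists, 8 genes were called in opposite directions with the hairpins, on either side of the shared controls. A difference between sh6 and sh1 follows from that choice, so it is given as a value with no p. As sh6 minus sh1 on the log2 scale, SCARB1, a lipoprotein receptor that takes up carotenoids, differed by 1.03, with all 3 sh6 libraries above the 3 sh1 libraries at means of 279.6 with sh6 and 108 with sh1. PNPLA4, a retinyl ester hydrolase, differed by -0.45. CRABP1 differed by 0.68, TBL1X by 0.51 and NCOA3 by 0.49. CARM1 differed by -0.89, BTG2, an antiproliferative gene, by 0.80, and HRASLS by -0.52. Of all tested genes, 842 (6.40%) were called in opposite directions. The PNPLA4 calls against control, 0.23 with sh1 (adjusted p = 0.0417), against -0.22 with sh6 (adjusted p = 0.0458), were lost under several scalings and filters and with each of several libraries left out, at 0.19 to 0.22 for sh1 (without control replicate 1 or 3, or sh1 replicate 1 or 3) and at -0.24 to -0.15 for sh6 (without control replicate 2 or 3, sh1 replicate 1 or 3, or sh6 replicate 1 or 3).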

How the results depend on the processing

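Among the list genes named by the rule above, no call changed its direction under any alternative. Calls of other genes, such as STRA6 and IRF1, were not followed singly. The differences of RARB with sh1 and of RARA between the hairpins, both near 0, took either sign as single libraries were left out. Genes called ranged without single libraries from 7000 to 8014 with sh1, from 8337 to 8889 with sh6, from 7108 to 8134 between the hairpins and from 4509 to 5262 with both. A further setting required a fold of at least 1.5 on the deposited log2 scale. That left 1640 genes with sh1, 2426 with sh6, 1521 between the hairpins and 870 with both. Of the 78 list genes that setting left 3 higher and 19 lower with sh1, 6 higher and 17 lower with sh6, 6 higher and 3 lower for sh6 against sh1, and 2 higher and 10 lower with both. The member median with sh1 was -0.15 after quantile normalisation, the value of CRABP2. RARRES3 was at -2.48 with sh1 and -2.30 with sh6 on log2 of the recovered count plus 1, and RARRES1 at -2.02 with sh1 after quantile normalisation.

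Replicate numbers gave no clear sign of pairing, which does not exclude it. With group means removed, same-numbered libraries of different groups had correlations of -0.13 to 0.18, and differently numbered ones -0.18 to 0.17. With the numbers as a replicate block, 7950 genes were called with sh1, 9049 with sh6, 8002 between the hairpins and 5179 with both. Without the block these were 7760, 8922, 7861 and 5037. At 15741149 to 19755801 reads per library, genes near the floor such as CYP26A1 rest on a few reads.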
